A study of Homo sapiens with 6 samples.

Results

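Transcripts of 8 genes of the ERBB signalling system were followed in SPT5-AID cells after knockdown of ARMC5. The genes are the receptors EGFR, ERBB2 and ERBB3, the ligands AREG, EREG, TGFA and HBEGF, and ERRFI1, which encodes an intracellular inhibitor of these receptors. They were listed by symbol, with earlier results of these data known and with no threshold on their values, and are 8 of the 35810 genes to which transcripts in the deposited files were matched. All 8 were among the 13737 genes with enough reads to be tested (at least 10 counts in at least 3 libraries).

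SPT5-AID cells derive from DLD-1, a colorectal adenocarcinoma line, and carry an auxin-inducible degron on SPT5, a transcription elongation factor of RNA polymerase II. All 6 libraries have this genotype. The cells received a lentiviral short hairpin RNA against ARMC5 (shARMC5, 3 replicates) or a nontargeting one (shNT, 3 replicates), followed by puromycin selection. No auxin is named in their labels. Which of the ARMC5 hairpins was used is not given in the sources used here, and the labels do not say whether replicates came from separate cultures. The statistics section of the paper speaks of biological replicates without describing how these libraries were grown. P values set the difference between the groups against the spread between these libraries, whose independence is not known. In edgeR that spread is estimated with the help of all genes tested. Polyadenylated RNA was sequenced in bulk, where fewer cells expressing a gene and less of its RNA per cell cannot be told apart.

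Depth ranged from 26201112 to 40866478 assigned reads per library. ARMC5, the substrate adaptor of a CUL3 ubiquitin ligase, was at 10.8, 12.0 and 12.9 CPM (counts per 1000000 reads on genes, normalized between libraries with TMM factors) in shARMC5 and at 23.0, 25.9 and 26.7 CPM in shNT. Its log2 fold change was -1.09 (SE, the standard error, 0.08, adjusted P = 5.32e-07 from edgeR). The epithelial markers EPCAM and CDH1 lay above 981 and 141 TPM (transcripts per 1000000, a level per transcript length) in every library, CDX2 lay at 111 to 128 TPM, and CDX1 was at 0. The markers CEACAM5, CEACAM6, GPA33 and LGALS4 stayed at or below 1.07 TPM. The summed level of 6 fibroblast, 6 leukocyte and 6 endothelial markers stayed at or below 1.31, 3.21 and 0.389 TPM in every library.

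EGFR, ERBB2 and ERBB3 are receptor tyrosine kinases that pair with one another when a ligand binds. ERBB2 has no known ligand and serves as a partner, and ERBB3 has a weak kinase and couples strongly to PI3 kinase. AREG, EREG, TGFA and HBEGF are made as membrane proteins, are released by ADAM proteases and bind EGFR, and HBEGF and EREG also bind ERBB4. Active receptors signal through RAS and ERK and through PI3 kinase and AKT, and in colorectal cancer cells AREG and EREG are known as ligands that such signalling itself induces.

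Promoter sequences are shown for the called ligands and ERBB2, and for EREG, the neighbour of AREG on chromosome 4. RefSeq windows (GRCh38.p14) matched 7 of the 8 genes, with 9 windows in all, and ERBB3 had none. Each sequence below holds the 250 bases before a RefSeq start, 5' to 3' on the strand of the gene. Capitals mark TATAAA (the TATA box), TGACGTCA (the cyclic AMP response element, CRE), TGANTCA (the AP-1 site, with any base allowed at N), GGAATG (the TEAD site) and GGGCGG (the GC box), each searched on both strands. None of these motifs contains another.
AREG, chr4:74444886-74445135, plus strand: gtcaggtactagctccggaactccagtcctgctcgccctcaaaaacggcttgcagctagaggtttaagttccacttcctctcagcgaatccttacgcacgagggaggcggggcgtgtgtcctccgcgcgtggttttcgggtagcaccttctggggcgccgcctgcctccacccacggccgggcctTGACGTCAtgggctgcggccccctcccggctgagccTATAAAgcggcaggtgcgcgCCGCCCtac
EREG, chr4:74364895-74365144, plus strand: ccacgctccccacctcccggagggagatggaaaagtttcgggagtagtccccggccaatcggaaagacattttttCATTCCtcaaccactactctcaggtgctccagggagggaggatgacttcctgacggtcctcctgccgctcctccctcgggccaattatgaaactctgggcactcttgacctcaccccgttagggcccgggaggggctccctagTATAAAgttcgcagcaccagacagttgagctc
TGFA, chr2:70553827-70554076, minus strand: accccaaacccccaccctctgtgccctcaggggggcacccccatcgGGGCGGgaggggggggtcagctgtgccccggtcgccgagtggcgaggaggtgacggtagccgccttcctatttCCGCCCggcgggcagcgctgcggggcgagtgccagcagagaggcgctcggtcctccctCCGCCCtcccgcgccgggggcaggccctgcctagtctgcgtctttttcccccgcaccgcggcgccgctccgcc
ERBB2, chr17:39687844-39688093, plus strand: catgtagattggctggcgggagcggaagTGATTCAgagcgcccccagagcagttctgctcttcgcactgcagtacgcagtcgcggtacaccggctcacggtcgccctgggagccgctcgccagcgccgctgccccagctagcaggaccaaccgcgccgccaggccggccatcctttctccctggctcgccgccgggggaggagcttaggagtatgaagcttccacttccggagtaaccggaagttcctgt

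The TATA match of AREG began 29 bases before the start and that of EREG 32 bases before it. Such a match was present in 10.7% of the 35116 RefSeq windows of this length. AREG also held a CRE, whose first base lies 65 bases before the start, a motif found in 1.65% of windows. EREG held a TEAD motif (11.9% of windows). ERBB2 held a match to the AP-1 pattern TGANTCA, with T as its middle base. The pattern allows any middle base and was found in 6.57% of windows. The printed TGFA window held 3 GC boxes, that of HBEGF 5 and those of ERRFI1 and AREG 1 each, and 42.6% of all windows had at least 1. A second TGFA window held 0 matches to any of the motifs. EGFR had 2 windows, one with 2 GC boxes and the other with 2 TATA boxes, 2 AP-1 sites and 1 TEAD site. The RefSeq starts of the printed TGFA and ERBB2 windows lie inside the annotated GENCODE 44 genes, so the TGFA window is wholly and the ERBB2 window partly within the gene. These matches describe letters only, and no binding was measured in these RNA libraries.

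Knockdown of ARMC5 was accompanied by lower mRNA of ERBB3 and ERBB2 and higher mRNA of AREG and TGFA. The changes were small, 0.845 and 0.907 times the shNT level for the receptors ERBB3 and ERBB2, and 1.16 and 1.11 times for the ligands AREG and TGFA. EGFR, EREG, HBEGF and ERRFI1 did not pass the test. All 4 calls were lost with an offset for transcript length in edgeR and with limma on TPM. Those of ERBB2 and TGFA were also lost when transcripts without a GENCODE 44 match were kept. With DESeq2, the tool named in the paper, and a length offset, TGFA lost its call and ERBB3, ERBB2 and AREG kept theirs. Among all 13737 genes tested 7.75% were called at an adjusted P value under 0.1 (edgeR's quasi-likelihood F test), 4.44% higher and 3.3% lower. Of the 8 genes 4 were called, 2 in each direction. Their median log2 fold change was 0.09, beside -0.00142 over all tested genes, and the median absolute log2 fold change over all tested genes was 0.08.

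**Figure D1:**
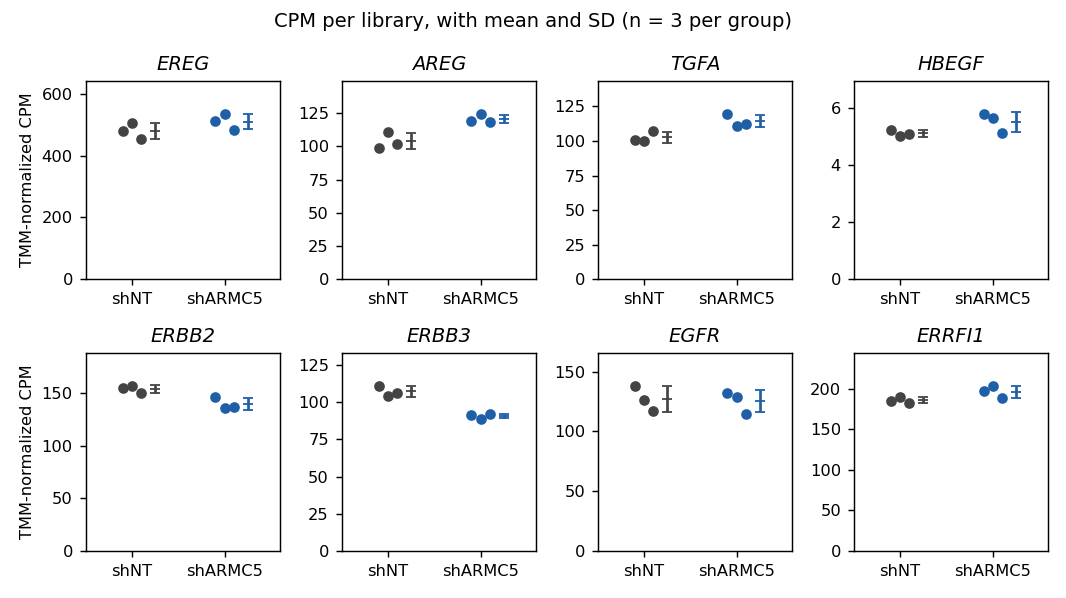
TMM-normalized CPM (y axis, from 0) of each gene in the 3 shNT and 3 shARMC5 libraries (points, in the order of replicates 1 to 3), with mean and SD beside them. The shARMC5 points lie below all shNT points for ERBB2 and ERBB3 and above them for AREG and TGFA, and they overlap for the other 4 genes.

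ERBB3 (ENSG00000065361, chromosome 12 of GRCh38 from 56076799 to 56103505, plus strand), the kinase-weak partner receptor, was at 91.4, 88.9 and 91.8 CPM in shARMC5 replicates 1 to 3. In shNT replicates 1 to 3 it was at 111, 104 and 106 CPM. Every shARMC5 library was below every shNT library. Its log2 fold change was -0.24 (SE 0.04, 95% interval -0.32 to -0.17, adjusted P = 0.000523 from edgeR), and it ranked 85 of 13737 genes by P value. It was covered by 2317 to 3635 reads per library. The call held with each library left out in turn, with log2 fold changes from -0.26 to -0.22.

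ERBB2 (ENSG00000141736, chromosome 17 from 39687914 to 39730426, plus strand), the receptor without a known ligand, was at 146, 136 and 137 CPM in shARMC5 and at 155, 157 and 149.8 CPM in shNT. The groups did not overlap, and shARMC5 replicate 1 lay closest to the shNT libraries. The log2 fold change was -0.14 (SE 0.03, 95% interval -0.21 to -0.07, adjusted P = 0.0250 from edgeR), from 3457 to 5352 reads per library. Without shARMC5 replicate 2 the log2 fold change was -0.12 and the adjusted P from edgeR was 0.135. Without shNT replicate 1 the values were -0.14 and 0.1005, so the call was lost in both cases. On the opposite strand the gene spans of PGAP3 and MIEN1 overlap that of ERBB2 by 8884 and 1931 bases. The library kit named in the labels does not mark strand, and reads from such overlaps cannot be told apart. PGAP3 was at 11.9 TPM on average with a log2 fold change of -0.14 (adjusted P = 0.306, edgeR), and MIEN1 was at 84.1 TPM with -0.04 (adjusted P = 0.742, edgeR).

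EGFR (ENSG00000146648, chromosome 7 from 55019017 to 55211628, plus strand), the receptor of all 4 ligands, was at 132, 128 and 115 CPM in shARMC5 and at 138, 127 and 117 CPM in shNT. The groups overlapped over nearly their whole range. The log2 fold change was -0.02 (SE 0.08, adjusted P = 0.932 from edgeR). Its 95% interval, -0.23 to 0.19, included changes as large as that of ERBB2. In CPM EGFR varied more within groups than the other receptors, with a coefficient of variation of 7.27% in shARMC5 and 8.40% in shNT. For ERBB3 these were 1.73% and 3.25%. In TPM that order did not hold in shARMC5, with 4.53% for EGFR and 8.38% for ERBB2. In shNT these TPM values were 10.3% and 6.67%.

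AREG (ENSG00000109321, chromosome 4 from 74445136 to 74455005, plus strand), which encodes amphiregulin, was at 119, 124 and 119 CPM in shARMC5 and at 99.1, 111 and 102 CPM in shNT. All shARMC5 libraries lay above all shNT libraries. The log2 fold change was 0.21 (SE 0.04, 95% interval 0.13 to 0.30, adjusted P = 0.00579 from edgeR), and 2857 to 4902 reads covered it per library. It kept its call with each library left out, with log2 fold changes from 0.18 to 0.26.

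TGFA (ENSG00000163235, chromosome 2 from 70447284 to 70554193, minus strand), which encodes transforming growth factor alpha, was at 120, 111 and 113 CPM in shARMC5. In shNT it was at 101, 99.7 and 107 CPM, and the groups did not overlap. The log2 fold change was 0.16 (SE 0.04, 95% interval 0.07 to 0.24, adjusted P = 0.0269 from edgeR). The highest library was shARMC5 replicate 1, and without it the log2 fold change was 0.12 and the adjusted P from edgeR 0.114. Without shNT replicate 1 it was 0.15, with an adjusted P of 0.120 from edgeR.

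EREG (ENSG00000124882, chromosome 4 from 74365145 to 74388749, plus strand), which encodes epiregulin, had the most reads of the 8 genes, 12203 to 21098 per library. It was at 513, 535 and 484 CPM in shARMC5 and at 479, 505 and 455 CPM in shNT, and the groups overlapped. The log2 fold change was 0.09 (SE 0.05, 95% interval -0.02 to 0.20, adjusted P = 0.374 from edgeR). With each library left out in turn it lay between 0.0541 (without shNT replicate 3) and 0.129 (without shNT replicate 2) and was not called. EREG was called in 2 of 17 alternatives, among them a fit with a replicate block (adjusted P = 0.00711 from edgeR). HBEGF (ENSG00000113070, chromosome 5 from 140332843 to 140346603, minus strand), the heparin-binding ligand, was covered by only 129 to 222 reads. It was at 5.77, 5.63 and 5.11 CPM in shARMC5 and at 5.23, 4.99 and 5.07 CPM in shNT. Its log2 fold change of 0.11 had a SE of 0.13 (adjusted P = 0.704 from edgeR). Its 95% interval, -0.15 to 0.38, included 0 as well as the change seen for AREG.

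ERRFI1 (ENSG00000116285, chromosome 1 from 8004404 to 8026309, minus strand), also known as MIG6, binds the kinase domains of these receptors and blocks them. It was at 196, 203 and 189 CPM in shARMC5 and at 185, 189 and 183 CPM in shNT. The lowest shARMC5 library lay just below the highest shNT library. The log2 fold change was 0.08 (SE 0.03, 95% interval 0.01 to 0.15), which did not pass over all genes (unadjusted P = 0.0211, adjusted P = 0.177 from edgeR). Without shARMC5 replicate 3 it was 0.10 and was called (adjusted P = 0.0899 from edgeR).

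Groups of TMM CPM did not overlap for 4 of the 8 genes, the 4 called ones, and for 23.4% of all genes tested (12.5% higher and 10.9% lower in shARMC5). For these 4 genes the two-sided exact permutation test over libraries gave P = 0.1, the smallest that 3 against 3 can give, so that test alone cannot pass 0.05. It gave 0.8 for EGFR and 0.2 for EREG, HBEGF and ERRFI1.

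**Figure D2:**
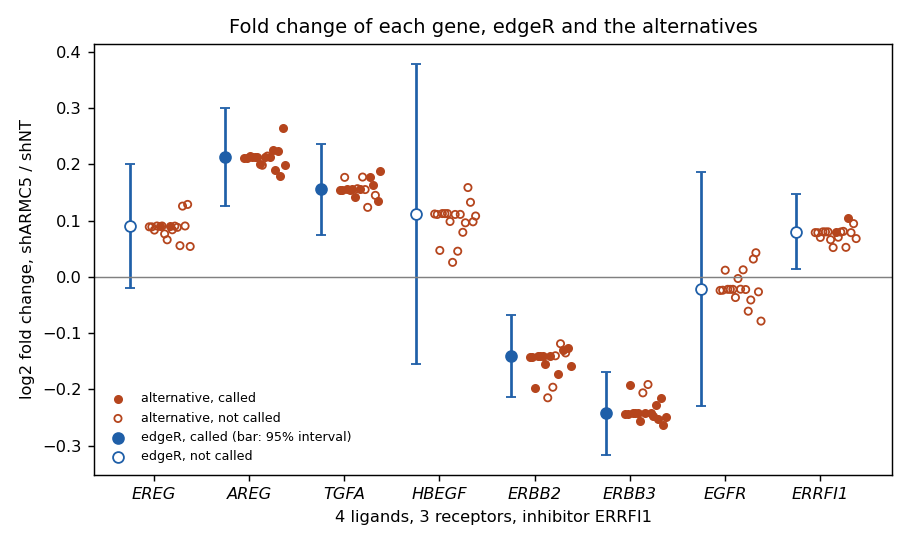
Log2 fold change of each gene (y axis) in edgeR (blue, bar for the 95% interval) and in 17 alternative settings (orange), filled where called. AREG and ERBB3 were called in 15 of 17 alternatives, ERBB2 in 12, TGFA in 11, EREG and ERRFI1 in 2 each, and EGFR and HBEGF in 0.

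A fit that takes up each gene's average transcript length in each library, with an offset in edgeR, gave similar fold changes and none of the 4 calls. It called 1.71% of all genes. The log2 fold changes and adjusted P values from edgeR there were -0.19 and 0.218 for ERBB3, -0.20 and 0.179 for ERBB2, 0.21 and 0.117 for AREG, and 0.18 and 0.269 for TGFA. DESeq2 with the same kind of offset called ERBB3, ERBB2 and AREG but not TGFA (adjusted P = 0.146). The average effective length of ERBB2 was 3620, 3631 and 3897 bases in shARMC5 and 3456, 3747 and 3515 bases in shNT. For ERBB3 it was 4198, 4268 and 4371 bases in shARMC5 and 4565, 4678 and 4095 bases in shNT. For TGFA it was 3034, 3265 and 3326 bases in shARMC5 and 3232, 3179 and 3344 bases in shNT. The average effective length of AREG stayed between 1012 and 1021 bases over the 6 libraries.

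Levels can be compared between genes on the TPM scale. The order was the same in both groups, namely EREG, AREG, ERRFI1, ERBB2, TGFA, ERBB3, EGFR and HBEGF. In shNT the mean TPM was 198 ± 11.7 for EREG, 145 ± 8.34 for AREG, 99.1 ± 4.29 for ERRFI1 and 61.1 ± 4.07 for ERBB2 (SD, n = 3). It was 44.7 ± 1.06 for TGFA, 34.3 ± 2.54 for ERBB3, 19.2 ± 1.97 for EGFR and 3.45 ± 0.217 for HBEGF. In shARMC5 the means were 208 ± 13.0, 166 ± 5.82, 103 ± 5.69, 52.6 ± 4.41, 50.0 ± 4.96, 29.6 ± 1.003, 19.1 ± 0.865 and 3.52 ± 0.271 TPM in that order. Neighbours in the order did not overlap in shNT. In shARMC5 ERBB2, at 57.1, 52.6 and 48.3 TPM, overlapped TGFA, at 55.7, 47.8 and 46.5 TPM, and no other neighbours overlapped.

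**Figure D3:**
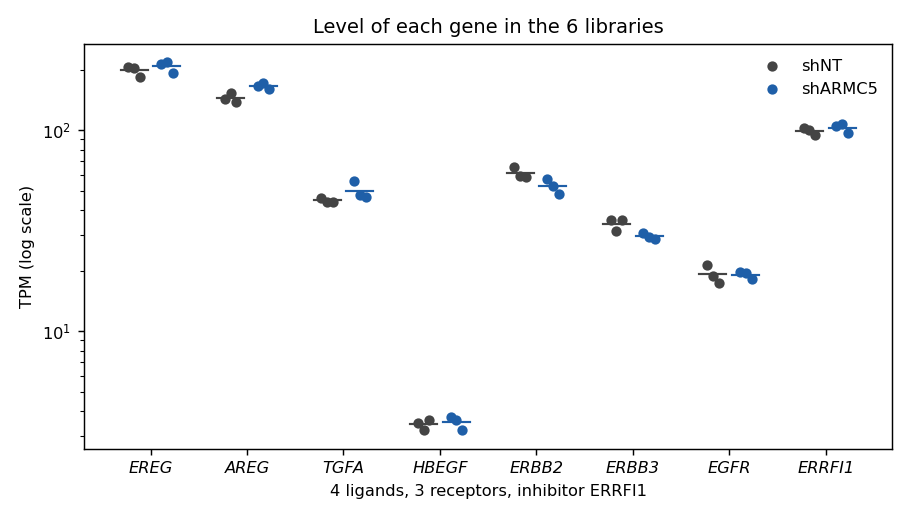
TPM of each gene (log y axis) in the 3 shNT (dark) and 3 shARMC5 (blue) libraries, with lines for the group means. EREG lies highest, between 185 and 217 TPM, and HBEGF lowest, between 3.21 and 3.73 TPM, and ERBB2 and TGFA come together in shARMC5.

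ERBB4, the remaining receptor of the family, was listed at 0 in every library, so the receptor pool consisted of the other three. Their summed level was 108, 101 and 95.2 TPM in shARMC5 and 123, 109 and 112 TPM in shNT, without overlap. EGFR made up 18.3, 19.3 and 19.0% of it in shARMC5 and 17.4, 17.3 and 15.6% in shNT. ERBB2 was the most abundant receptor in every library, with 50.7 to 54.0% of the pool. The ratio of ERBB2 to EGFR was 2.91, 2.69 and 2.67 in shARMC5 and 3.08, 3.13 and 3.36 in shNT. The ratio of ERBB3 to EGFR was 1.57, 1.499 and 1.59 in shARMC5 and 1.68, 1.67 and 2.05 in shNT. Neither ratio overlapped between groups, while that of ERBB2 to ERBB3 did. These are descriptions of TPM values with no test. With EGFR nearly level, the lower sum, the higher share of EGFR and the lower ratios to EGFR follow from the lower ERBB2 and ERBB3. They are not separate results.

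The pool of the 4 ligands with BTC, EGF, EPGN and the 4 neuregulins came to 447, 449 and 409 TPM in shARMC5 and 407, 417 and 380 TPM in shNT, with overlap. EREG supplied a mean of 47.7% of it in shARMC5 and 49.5% in shNT, and AREG 38.1% and 36.1%. The ratio of AREG to EREG was 0.780, 0.789 and 0.829 in shARMC5 and 0.693, 0.751 and 0.744 in shNT, without overlap and with no test. That of AREG to TGFA was 2.98, 3.59 and 3.44 in shARMC5 and 3.10, 3.49 and 3.12 in shNT, with overlap. TGFA supplied 11.5% and 11.2%, and HBEGF 0.807% and 0.863%.

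Reads of EGFR, AREG and EREG fell almost entirely on 1 transcript, with 99.5 to 99.9%, 99.8 to 100% and 99.1 to 99.5% on EGFR-201, AREG-201 and EREG-201. For ERBB3 80.7% fell on ERBB3-201 in shARMC5 replicate 1 and 90.4 to 92.2% in the other 5 libraries. In shARMC5 replicate 1, 235 reads (8.49%) were assigned to ERBB3-203, and 0 in the other 5 libraries, which lowers ERBB3-201 there. For ERBB2 62.8 to 78.4% fell on ERBB2-201. In shARMC5 replicate 2, 609.7 reads were assigned to ERBB2-204, and 0 in the other 5 libraries. Of the 77 annotated transcripts of the 8 genes that the files list, 27 were tested and 0 were called by edgeR. Over all 51892 transcripts tested 0.00771% were called. ERBB3-201 had 2238, 3198 and 2124 reads in shARMC5 and 3351, 3089 and 2697 in shNT, with a log2 fold change of -0.30 (SE 0.06, unadjusted P = 0.00269, adjusted P = 0.369 from edgeR). ERBB2-203, which held 10.7 to 16.2% of the reads of ERBB2, had -0.43 (SE 0.11, adjusted P = 0.594 from edgeR). ERBB3-221, annotated as a retained intron, had only 5, 5 and 0 reads in shARMC5 and 26, 23 and 27 in shNT. Its log2 fold change was -2.99 (SE 1.01, adjusted P = 0.900 from edgeR). AREG-201 had 0.22 and TGFA-201 0.17, with adjusted P values of 0.629 for both from edgeR. Salmon divides reads shared by transcripts among them, which adds to the error of each.

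Of the other ligands, BTC (betacellulin) was at 7.07, 7.36 and 5.81 TPM in shARMC5 and 7.05, 9.16 and 7.65 TPM in shNT, with overlap. In CPM it was at 8.05, 8.77 and 9.19 in shARMC5 and at 10.5, 11.5 and 9.38 in shNT. These CPM groups did not overlap, which was so for 23.4% of all genes tested. The log2 fold change of BTC was -0.27 (SE 0.10, adjusted P = 0.157 from edgeR), and it was not called. EGF and NRG1 stayed below 1 TPM and were not called, with log2 fold changes of 0.15 (SE 0.35) and -0.50 (SE 0.36). NRG4 lay between 0.547 and 1.26 TPM, from 5 to 9 reads, and NRG2, NRG3 and EPGN had at most 8 reads in any library, so these 4 were not tested.

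Lists of pathway genes were described by their counts and medians, with no test of a list. For comparison, 4.44% of all tested genes were called higher and 3.3% lower. Of 9 tested genes of ligand shedding, ADAM9, a membrane metalloprotease, was called higher (log2 fold change 0.13, SE 0.03, adjusted P = 0.0153 from edgeR), and 0 were lower. ADAM9 was not called with the offset for transcript length in edgeR (adjusted P = 0.137). ADAM17, the main sheddase of AREG, EREG, TGFA and HBEGF, lay between 19.1 and 22.1 TPM with a log2 fold change of -0.04, and ADAM10 had -0.04. No gene was called among 20 adaptors and signal transducers (median 0.00232), 13 RAS and ERK kinases and regulators (median 0.02) and 10 genes of PI3 kinase and AKT (median -0.05). Of 23 genes of receptor ubiquitination, dephosphorylation and trafficking, PTPN1, a tyrosine phosphatase that acts on EGFR, was called higher (0.20, adjusted P = 0.00313 from edgeR). The median of that list was -0.03.

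Among 14 tested genes whose transcription responds to ERK signalling, 6 were called higher and 0 lower, with a median log2 fold change of 0.17. Over all tested genes 4.44% were called higher and 3.3% lower. The list was fixed with earlier results of these data known, so its count is no independent test. DUSP6, an ERK phosphatase, was at 118, 118 and 113 TPM in shARMC5 and 82.0, 90.3 and 73.8 TPM in shNT. Its log2 fold change was 0.60 (SE 0.03, adjusted P = 4.85e-09 from edgeR). DUSP6 was called in all 16 alternatives evaluated for single pathway genes, which did not include limma on TPM. DUSP5, a nuclear ERK phosphatase, changed by 0.41 (adjusted P = 0.000622, edgeR), and EGR1, an immediate early transcription factor, by 0.35 (adjusted P = 8.94e-05, edgeR). SPRY4, an inhibitor of receptor tyrosine kinase signalling, changed by 0.31 (adjusted P = 0.0272, edgeR). FOSL1, an AP-1 subunit, changed by 0.27 (adjusted P = 0.0327, edgeR), and ETV5, an ETS factor, by 0.23 (adjusted P = 0.0223, edgeR). DUSP6, DUSP5 and EGR1 were still called with the offset for transcript length in edgeR, and SPRY4, FOSL1 and ETV5 were not. FOSL1 also lost its call without shARMC5 replicate 2 (adjusted P = 0.145, edgeR) and without shNT replicate 1 (adjusted P = 0.137, edgeR). SPRY4 lost its call without shARMC5 replicate 3 (adjusted P = 0.104, edgeR).

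**Figure D4:**
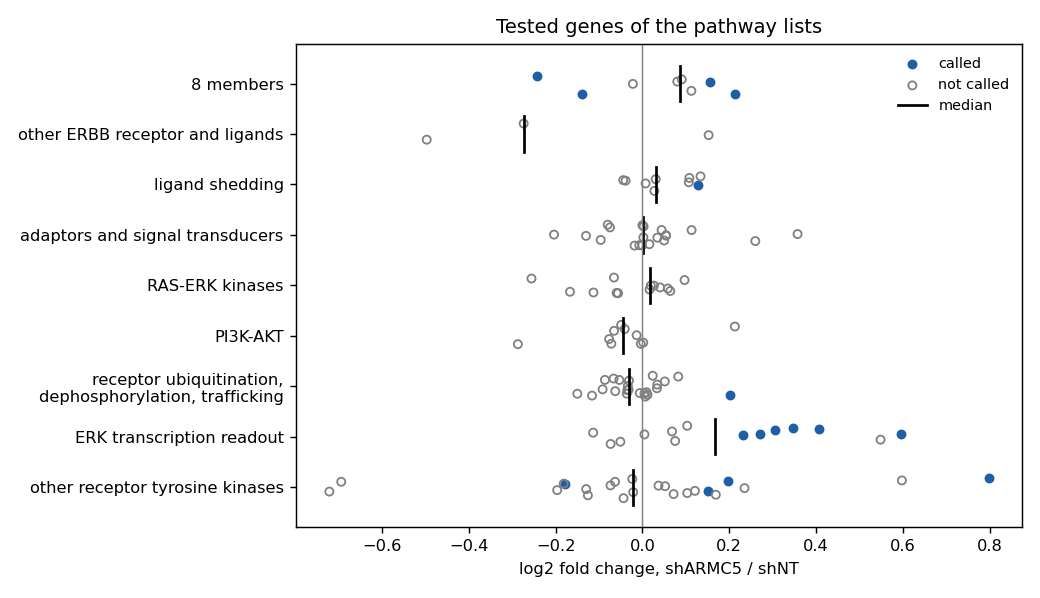
Log2 fold change (x axis) of each tested gene, in rows for the 8 genes and the 8 pathway lists, filled where called, with a black line at each median. The row of ERK-responsive genes holds 6 called genes, all to the right of 0, and the rows of adaptors, RAS and ERK kinases and PI3 kinase and AKT hold 0.

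Patterns over the 6 libraries were compared by the correlation of log2(TMM CPM + 0.5) with 9324 other genes of at least 10 CPM on average. Each coefficient mixes the difference between groups with the spread within them and carries no P value. The gene most like ERBB3 was SCNN1A, a subunit of the epithelial sodium channel (r = 0.998), which was also called lower (log2 fold change -0.27, adjusted P = 7.03e-05 from edgeR). AREG was most like HSD3B7 (r = 0.997), EREG most like GFM1 (r = 0.997), and ERBB2 most like APAF1 (r = 0.988). EGFR was most like MAGI1 (r = 0.987), TGFA most like PPP2R5E (r = 0.995), HBEGF most like FOCAD (r = 0.989) and ERRFI1 most like ATAD2 (r = 0.995). With so many genes and 6 points, coefficients of this size arise easily, and 18 to 164 genes exceeded 0.95 for each of the 8.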

How the data were processed

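RNA-seq of 6 libraries was analysed, and the other assays of the study were not used here. The authors used cutadapt 4.2 for trimming and Salmon 1.9.0, corrected for GC content, for quantification on the human genome build hg38. The transcript set is not given in the sources used here. The deposited files hold estimated counts and TPM per transcript, neither normalized between libraries, and their lengths.

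Transcripts were matched without version to GENCODE 44. Of 177456 transcripts 165533 matched, and the others, with 2.96 to 3.04% of reads, were left out. Estimated counts were summed per gene and rounded, and TPM summed. A gene entered the fit when 3 or more libraries held 10 or more counts. The fit was the robust quasi-likelihood one of edgeR 4.0.16 under R 4.3.3 (F test, TMM, condition only), with Benjamini-Hochberg adjustment over all 13737 genes and a threshold of 0.1. Permutation tests used scipy 1.17.1. The fits were also run on simulated data. The changes set there were larger than those of ERBB3, ERBB2, AREG and TGFA, so changes of their size were not checked. An interval or a fold change of a gene with few reads is limited by counting error.

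The genes and lists were chosen with earlier results of these data known. The text names the 8 genes, ARMC5, other ERBB receptors and ligands with any read, at most 5 called genes each way of a list by fold change (6 were called higher among ERK-responsive genes, and ETV5 is named beyond that limit), and for each gene the 1 gene most like it. ADAM10, ADAM17, PGAP3, MIEN1 and the markers were named for their role or position. Alternatives were other size factors, length offsets, DESeq2 1.42.0, limma 3.58.1 on log2(TPM + 0.1), other filters, a replicate block, unmatched transcripts kept, a stricter threshold and each library left out. For single pathway genes limma on TPM was not evaluated.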

Additional observations from a re-analysis of the deposited data

How the results depend on the processing

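All 4 calls were lost with the length offset in edgeR (235 genes called in all, 0 of the 8 genes higher and 0 lower, 6 pathway genes higher). Log2 fold changes there were -0.20 for ERBB2, -0.19 for ERBB3, 0.21 for AREG and 0.18 for TGFA, and EGFR changed sign to 0.0126. DESeq2 with that offset called 568 genes and 1 of the 8 higher, with EGFR at 0.0119 and TGFA at 0.18. With limma on log2(TPM + 0.1), 0 of the 8 were called higher and 0 lower, at -0.22 for ERBB2, -0.21 for ERBB3, 0.20 for AREG and 0.16 for TGFA (adjusted P 0.452 to 0.625). With unmatched transcripts kept, 532 genes were called, 1 of the 8 higher and 1 lower, and ERBB2 (-0.14, adjusted P = 0.120 from edgeR) and TGFA (0.16, adjusted P = 0.125 from edgeR) were not called. At an adjusted P under 0.05, 676 genes were called. With a minimum of 1 count, EREG was called at 0.0904 (adjusted P = 0.0690 from edgeR). Pathway genes called lower, 1 in the reported fit, numbered 2 with DESeq2, 3 with DESeq2 and the offset and 3 with a minimum of 1 count.

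Leaving out each library in turn gave 536 to 1085 called genes (536 without shNT replicate 1, 600 without shARMC5 replicate 2, 694 without shNT replicate 3), 1 to 3 of the 8 higher, 1 to 2 lower and 1 to 2 pathway genes lower. Log2 fold changes ranged from -0.0787 to 0.0430 for EGFR (0.0317 without shARMC5 replicate 3 and 0.0430 without shNT replicate 1), -0.17 to -0.12 for ERBB2, 0.12 to 0.19 for TGFA, 0.0541 to 0.129 for EREG, 0.0793 to 0.159 for HBEGF and 0.0526 to 0.105 for ERRFI1. The cause of these differences was not tested.

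With a replicate block, 1766 genes were called, 4 of the 8 higher, with EREG at 0.0903 (adjusted P = 0.00711 from edgeR) and ERRFI1 at 0.0795 (adjusted P = 0.0483 from edgeR), and 5 pathway genes lower. Same-numbered libraries correlated in their deviations from group means at 0.00769, 0.131 and 0.166, and differently numbered ones at -0.191 to 0.0628. Not every library was closest to its own number. Whether the numbers pair the libraries is not settled, and the reported fit did not take them to. Of the values of the 8 genes under the 17 alternatives, 113 kept their direction and side of the threshold, 15 lost and 4 gained a call, and the 4 that changed sign were those of EGFR. Lists with 0 called genes in the reported fit held at most 3 in any alternative, with 3 RAS and ERK genes lower under the block. HBEGF, with 129 to 222 reads per library, had the fewest reads of the 8 genes.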

Other observations

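Among 23 tested receptor tyrosine kinases outside the ERBB family, 3 were called higher and 1 lower, with a median log2 fold change of -0.02. The shares over all tested genes were 4.44% higher and 3.3% lower. DDR1, a collagen receptor, was at 32.8, 35.2 and 39.0 TPM in shARMC5 and 28.0, 24.3 and 25.4 TPM in shNT, with a log2 fold change of 0.80 (SE 0.12, adjusted P = 0.0286 from edgeR). With the length offset its log2 fold change was 0.48, both in edgeR (adjusted P = 0.0384) and in DESeq2 (adjusted P = 1.38e-05). Without shNT replicate 1 its adjusted P from edgeR was 0.137. MET, the receptor of hepatocyte growth factor, changed by 0.15 (adjusted P = 0.00428, edgeR) and TYRO3 by 0.20 (adjusted P = 0.0319, edgeR), and both were not called with the length offset in edgeR. Without shNT replicate 3 the adjusted P of TYRO3 from edgeR was 0.115. KIT, the receptor of stem cell factor, was called lower at -0.18 (adjusted P = 0.00155, edgeR).

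Of the 8 tested epithelial markers, KRT8, KRT18 and KRT19, keratins of simple epithelia, were called higher and VIL1, a brush border protein, lower. Over all tested genes the shares were 4.44% higher and 3.3% lower. VIL1 was at 3.49, 2.95 and 4.23 TPM in shARMC5 and at 8.18, 7.67 and 9.91 TPM in shNT (log2 fold change -1.30, adjusted P = 2.77e-06 from edgeR). Their part in the changes of the ERBB receptors and ligands was not tested.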
